A study of Mus musculus with 2 samples.

Results

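Desmosomes are the adhesive patches that bind neighbouring epithelial cells and anchor their keratin filaments. The 10 desmosome genes described here were the rows of both deposited expression tables, joined on Entrez gene number, whose symbol was Dsg2, Dsg3, Dsc2, Dsc3, Dsp, Jup, Pkp1, Pkp2, Pkp3 or Perp. All 10 were found among the 18944 genes listed. RNA sequencing was performed on 1 Stat6 KO library and 1 WT library of cultured mouse cells labelled as intestinal stem cells. Both cultures came from mice aged 2 months that carried Lgr5GFP-CreERT2, in which the stem cell gene Lgr5 drives a fluorescent reporter and a tamoxifen-dependent Cre. The KO cells had been infected with a lentivirus carrying CRISPR/Cas and guide RNAs against Stat6 and then screened for loss of STAT6, the transcription factor activated by the cytokines IL-4 and IL-13. That protocol stands under both samples, so which virus, if any, the WT cells received is not known from it, and neither is the number of clones or animals behind a culture. Both were grown with N2 and B27 supplements, EGF, R-spondin 1, N-acetylcysteine and the kinase inhibitor Y27632. With 1 library per genotype there is no replicate error, and no test of genotype was possible.

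In a desmosome, the cadherins (desmogleins and desmocollins) span the membrane and bind the cadherins of the next cell. On the inner side, the armadillo proteins plakoglobin and the plakophilins hold the cadherin tails, and the plakin desmoplakin ties this plaque to keratin filaments. A simple epithelium such as the gut lining is known to use desmoglein 2, desmocollin 2 and plakophilin 2. Stratified epithelia such as skin and oesophagus add desmoglein 3, desmocollin 3, plakophilin 1 and the tetraspan protein PERP. Desmoplakin, plakoglobin and plakophilin 3 occur in both kinds.

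Most desmosome genes were at similar levels in the KO and WT cultures, and 1 differed widely. Dsg3, the desmoglein of stratified epithelia, was at 0.74 FPKM in KO and 11.11 FPKM in WT. FPKM counts the fragments of a gene relative to its transcript length and to the reads mapped in the library, and therefore allows levels of different genes to be set side by side. Dsc3 was at 0.1 FPKM in both libraries, too low for a 2-fold difference to be seen. The remaining genes differed by less than 2-fold, as most genes did. By the log2 ratio defined below, 2.18% of all measured genes were at least 2-fold lower in KO and 2.44% higher. In bulk RNA, fewer cells that express a gene and less of its RNA per cell cannot be told apart.

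**Figure D1:**
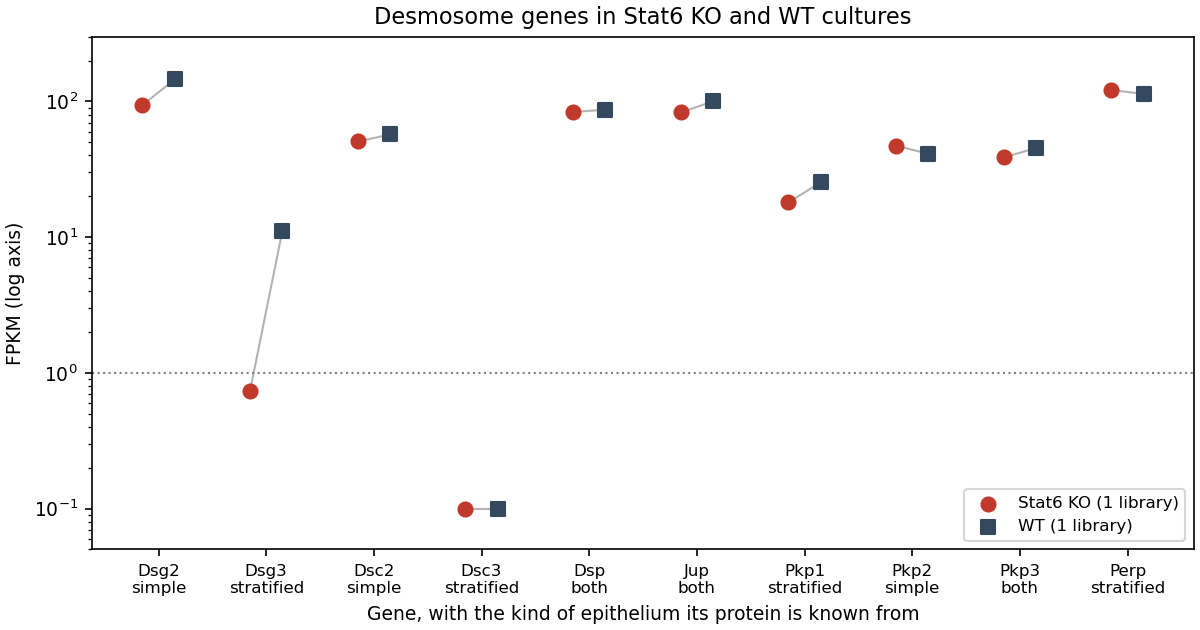
Level of each desmosome gene in FPKM on a log axis, with the Stat6 KO library as a red circle and the WT library as a dark square, 1 library each. The word under each symbol gives the kind of epithelium its protein is known from, and the dotted line marks 1 FPKM. Dsg3 is at 0.74 FPKM in KO and 11.11 FPKM in WT, Dsc3 is at 0.1 FPKM in both, and the other genes lie close together.

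The difference of a gene was expressed as the log2 ratio, log2((KO FPKM + 1)/(WT FPKM + 1)), in which the added 1 FPKM understates the change of low genes. It was read for the 12079 genes that reached 1 FPKM in either library. A log2 ratio of 1 or above was called higher in KO and one of -1 or below lower, a threshold of 2-fold. Of the 10 desmosome genes 9 reached that level, Dsg3 only through the WT library, and Dsc3 did not. Of these 9, 1 was lower in KO, where 2.18% of all genes were lower, and 0 were higher, where 2.44% of all genes were higher. These percentages follow the processing: 263 genes were lower and 295 higher as deposited, 171 (1.42%) and 437 (3.62%) after scaling by the trimmed mean of the log ratios (TMM), and 604 and 374 with a pseudocount of 0.1. The desmosome genes counted 1 lower and 0 higher under all 3. With so few genes, 1 call is a description of Dsg3 and says nothing of the set. The median log2 ratio of the 9 genes was -0.22, against -0.18 for all 12079.

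The label of the cultures was checked against marker genes. The Stat6 transcript itself was at 44.2 FPKM in KO and 41.3 FPKM in WT. Editing by CRISPR can disable a protein and leave its transcript in place, and the genotype therefore rests on the labels. Lgr5 was at 1.88 FPKM in KO and 1.79 FPKM in WT, near the minimum level of 1 FPKM. All 8 stem cell markers listed were measured and within 2-fold, as most genes were, with 2.18% of all genes lower in KO and 2.44% higher. Their log2 ratios ran from -0.71 (Ascl2) to 0.19 (Tnfrsf19), and they summed to 81.9 FPKM in KO and 91.0 FPKM in WT. Their likeness compares the 2 libraries and does not show that the cells were stem cells, so this label too rests on the submitters. Markers of absorptive enterocytes, the differentiated cells of the villus, were abundant in both libraries except Lct, the lactase gene, at 11.0 FPKM in KO and 0.53 FPKM in WT, and all 6 were at least 2-fold higher in KO, with a summed level of 10209 FPKM in KO and 2968 FPKM in WT. The cultures thus differed in their content of enterocyte transcripts, and the part of this difference in the desmosome values was not tested.

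**Figure D2:**
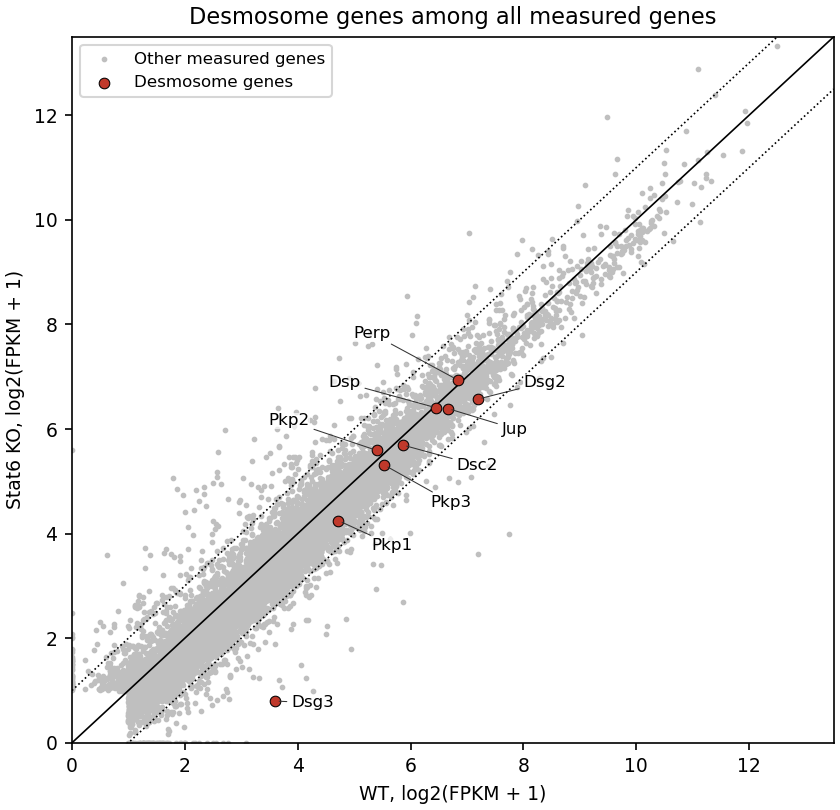
All 12079 measured genes as grey points, with log2(FPKM + 1) in WT on the x axis and in Stat6 KO on the y axis, and the 9 measured desmosome genes in red. The solid line marks equal levels and the dotted lines a 2-fold difference. Dsg3 lies far below the lower dotted line, and the other 8 lie between the lines.

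Among the desmogleins, Dsg3 (Entrez gene 13512) is known as the target of the autoantibodies of the human blistering disease pemphigus vulgaris. Its level of 0.74 FPKM in KO against 11.11 FPKM in WT gave a log2 ratio of -2.80. Only 7 genes of the 12079 had a lower one. Without the pseudocount, the KO level was 0.0666 times the WT level. Depth, estimated from the spacing of the low FPKM values, was 20500000 reads in KO and 19800000 reads in WT. At that depth the Dsg3 values stand for about 94 reads in KO (95% exact Poisson interval 76.0 to 115) and 1358 reads in WT (1287 to 1432). These intervals cover counting error only, and the 95% exact binomial interval of the KO to WT ratio was 0.0537 to 0.0824 on the same basis. Counting error at this depth is therefore small beside the difference, while the spread between cultures is unknown.

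Dsg2 (Entrez gene 13511), the desmoglein that all desmosome-bearing tissues are known to make, was at 94.1 FPKM in KO and 145 FPKM in WT. Its log2 ratio of -0.62 was the second lowest of the 10 genes, and 9.70% of all measured genes had a lower one. The KO level was 0.647 times the WT level, and so passed a threshold of 1.5-fold but not of 2-fold. Of the 9 measured desmosome genes 2, Dsg3 and Dsg2, were at least 1.5-fold lower in KO, where 11.4% of all genes were, and 0 were at least 1.5-fold higher, where 5.7% were. At 4-fold 1 gene, Dsg3, was lower, where 0.224% of all genes were, and 0 were higher, where 0.422% were. Dsg2 remained the main desmoglein in both libraries, at 127 times the Dsg3 level in KO and 13.1 times in WT.

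The desmocollins behaved otherwise. Dsc2 (Entrez gene 13506), the desmocollin of simple epithelia, was at 50.8 FPKM in KO and 57.1 FPKM in WT, a log2 ratio of -0.17, which is close to the median of all genes. Dsc3 (Entrez gene 13507), its counterpart in stratified epithelia, was at 0.1 FPKM in both libraries, or about 11 reads in KO (95% exact Poisson interval 5.49 to 19.7) and 10 reads in WT (4.80 to 18.4). Its plain KO to WT ratio had a 95% binomial interval of 0.410 to 2.79, so a difference within that range was not detectable at this depth. The stratified desmoglein was therefore expressed in WT at 11.11 FPKM while the stratified desmocollin was near 0.

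In mice the desmosomal cadherin genes lie side by side in a cluster on chromosome 18. By the order of the RefSeq annotation, and counting only genes in the deposited tables, Dsg3 stands between Dsg4 and Dsg2. Dsg4, a desmoglein known from hair, was at 0.42 FPKM in KO and 0.48 FPKM in WT. Dsc1, Dsg1b and Dsg1c, known from the upper layers of skin, were at no more than 0.05 FPKM in either library. Beyond Dsg2, the transthyretin gene Ttr was at 1.23 FPKM in KO and 0.88 FPKM in WT, and B4galt6, a galactosyltransferase, was at 40.2 FPKM in KO and 50.3 FPKM in WT. Of the genes in this neighbourhood that reached 1 FPKM in either library, Dsg3 alone passed 2-fold, where 2.18% of all genes were lower in KO. Genes below 1 FPKM in both libraries, Dsg4 among them, could not pass 2-fold with a pseudocount of 1. Dsg3 thus lay between a neighbour that was nearly silent and another that was highly expressed in both libraries.

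The plaque genes were abundant and differed little. Dsp (Entrez gene 109620), which encodes desmoplakin, the link to keratin filaments, was at 83.7 FPKM in KO and 86.9 FPKM in WT, a log2 ratio of -0.05. Jup (Entrez gene 16480) encodes plakoglobin, which desmosomes share with adherens junctions. It was at 83.0 FPKM in KO and 100.2 FPKM in WT, a log2 ratio of -0.27. The Dsp level was 1.01 times the Jup level in KO and 0.868 times in WT, a ratio that does not depend on how either library was scaled.

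The 3 plakophilins, which gather desmoplakin at the plaque, were not shifted alike. Pkp2 (Entrez gene 67451), the form of simple epithelia and heart, was at 47.2 FPKM in KO and 41.2 FPKM in WT, a log2 ratio of 0.19. Pkp3 (Entrez gene 56460), found in both kinds of epithelium, was at 38.7 FPKM in KO and 45.4 FPKM in WT, a log2 ratio of -0.22. Pkp1 (Entrez gene 18772), known mainly from the suprabasal layers of stratified epithelia, was at 18.0 FPKM in KO and 25.3 FPKM in WT, a log2 ratio of -0.47. Pkp2 stood above Pkp3 in KO, at 1.22 times its level, and below it in WT, at 0.908 times. Pkp1 was the lowest of the 3 in both libraries, at 0.382 times the Pkp2 level in KO and 0.615 times in WT.

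Perp (Entrez gene 64058) encodes a tetraspan membrane protein that is a target of p53 and that the desmosomes of mouse stratified epithelia require. It was at 121 FPKM in KO and 114 FPKM in WT, a log2 ratio of 0.09. Perp was thus the most abundant of the 10 genes in KO and the second most abundant after Dsg2 in WT, although it belongs to the stratified forms. The transcript of p53 itself, Trp53, was at 25.6 FPKM in KO and 46.9 FPKM in WT, a log2 ratio of -0.85.

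The order of levels was nearly the same in both libraries. In KO it ran Perp, Dsg2, Dsp, Jup, Dsc2, Pkp2, Pkp3, Pkp1, Dsg3, Dsc3. The WT order differed in 3 neighbouring pairs, with Dsg2 above Perp, Jup above Dsp and Pkp3 above Pkp2. Whether neighbours in either order differ beyond the spread between cultures cannot be said with 1 library each. The 10 genes summed to 538 FPKM in KO and 626 FPKM in WT, and the 4 cadherins to 146 FPKM in KO and 214 FPKM in WT, of which Dsg2 made up most of the difference.

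Simple and stratified forms were then compared within each library, where scaling cancels. Dsg3 made up 0.780% of the summed desmoglein FPKM (Dsg2 and Dsg3) in KO and 7.10% in WT. In estimated reads this share was 0.844% in KO (95% Clopper-Pearson interval 0.682% to 1.03%) and 7.61% in WT (7.22% to 8.01%). Dsc3 made up 0.197% of the desmocollin FPKM in KO and 0.175% in WT. Pkp1 made up 17.3% of the plakophilin FPKM in KO and 22.7% in WT, while Pkp2 made up 45.4% in KO and 36.8% in WT. The stratified form was the minor one in every family and library, and its share was smaller in KO among desmogleins and plakophilins. The desmocollin shares rest on about 11 and 10 reads of Dsc3 in KO and WT, and no direction can be read from them.

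**Figure D3:**
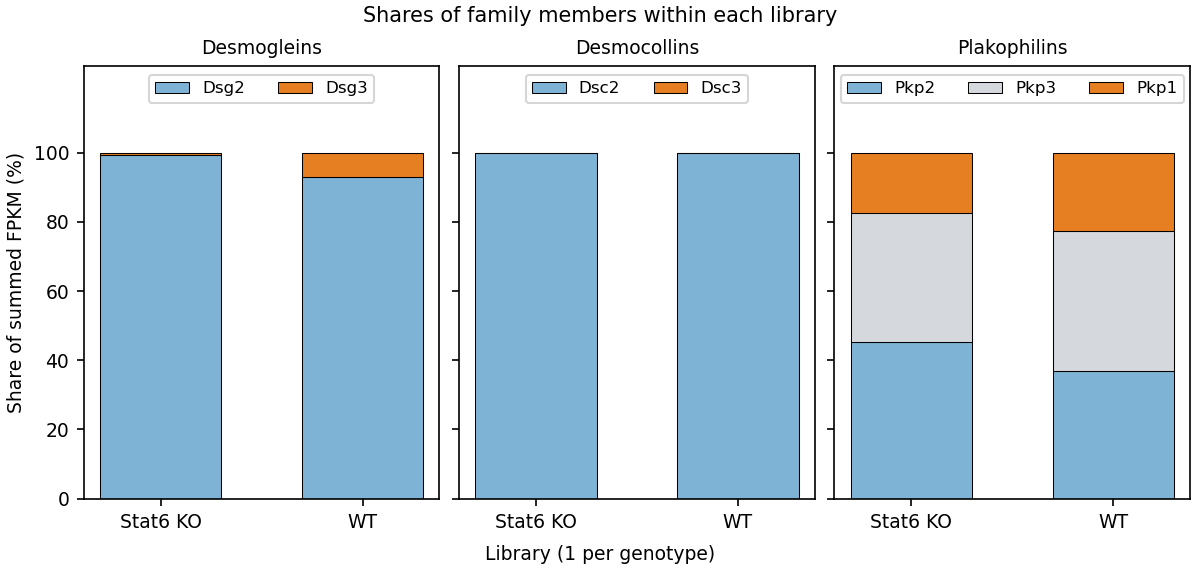
Share of each gene in the summed FPKM of its family, with the Stat6 KO library on the left and the WT library on the right of each panel. Blue is the form of simple epithelia, orange that of stratified epithelia and grey Pkp3, which occurs in both. Dsg3 takes 0.780% in KO and 7.10% in WT, Dsc3 too little to see, and Pkp1 17.3% in KO and 22.7% in WT.

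As summed levels, the simple forms Dsg2, Dsc2 and Pkp2 came to 192 FPKM in KO and 244 FPKM in WT. The stratified forms without Perp came to 18.9 FPKM in KO and 36.6 FPKM in WT, of which Dsg3 and Pkp1 were nearly all. With Perp included, the stratified forms summed to 140.3 FPKM in KO and 150.3 FPKM in WT. Perp alone made up 121 FPKM of this in KO and 114 FPKM in WT. The measured stratified forms therefore differed by unlike amounts: Dsg3 was far lower in KO, Pkp1 lower by less than 2-fold, and Perp close to its WT level. Dsc3 was near 0 in both libraries, with too few reads to show a shift or its absence.

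Scaling decided the sign of the small differences. The TMM factor moved the median log2 ratio of all genes by 0.20, to 0.02. With it Dsc2, Dsp and Pkp3 turned from negative to positive log2 ratios, at 0.06, 0.18 and 0.003, and Jup came to -0.04. Dsg3 (-2.70), Dsg2 (-0.39) and Pkp1 (-0.25) stayed negative, although Dsg2 was then no longer 1.5-fold lower, and Pkp2 (0.42) and Perp (0.32) positive. Under every setting shown, Dsg3 stayed past 2-fold, from -3.74 with a pseudocount of 0.1 to -1.49 with a pseudocount of 5.

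**Figure D4:**
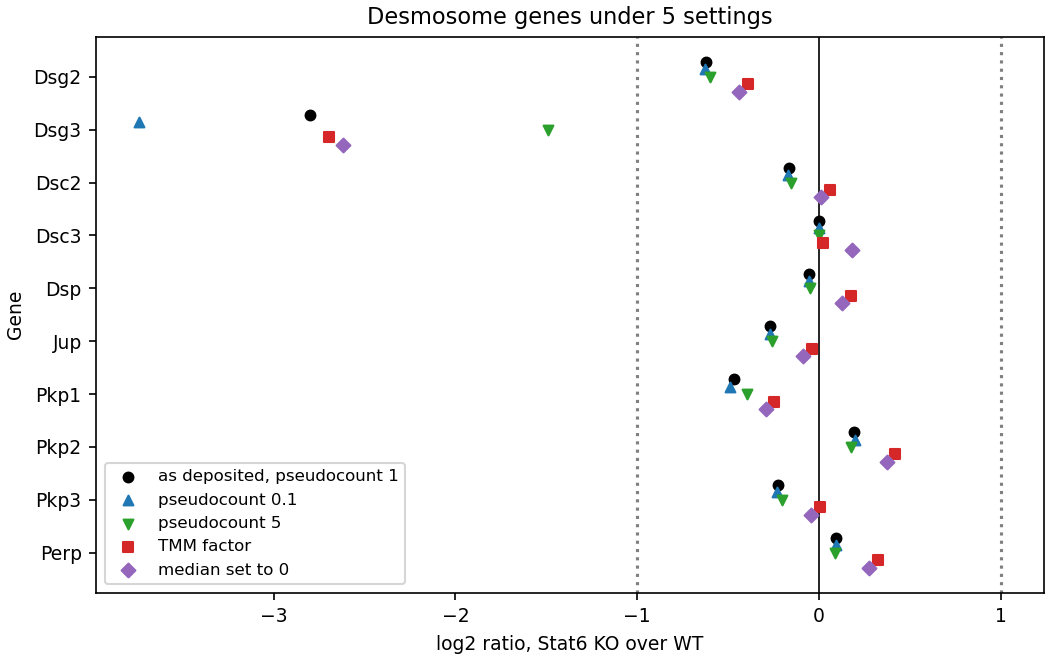
Log2 ratio of Stat6 KO over WT for each desmosome gene under 5 settings, with dotted lines at 2-fold. Dsg3 ranges from -3.74 to -1.49 and stays beyond the lower dotted line, whereas the other genes stay between the lines and several change sign.

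Related junction genes were described by lists, each set beside the 2.18% of genes lower and 2.44% higher in KO. Of 6 other desmosome-associated genes measured, 0 passed 2-fold in either direction, with a median log2 ratio of 0.01. The highest were the armadillo protein gene Pkp4 (0.38) and the plakin gene Evpl (envoplakin, 0.30), and the lowest Tchp (-0.43), which encodes the keratin-binding protein trichoplein, and Kazn (-0.10), which encodes kazrin. Pkp4 was at 36.4 FPKM in KO and 27.6 FPKM in WT. Adherens junction genes, whose cadherin link is to actin, also held 0 of 12 past 2-fold, with a median of 0.04. Cdh1, the E-cadherin gene, was at 272 FPKM in KO and 318 FPKM in WT (-0.22), and Ctnnb1, the beta-catenin gene, at 315 FPKM in KO and 375 FPKM in WT (-0.25). Cdh17, the liver-intestine cadherin, was the highest of the list at 502 FPKM in KO and 415 FPKM in WT (0.27).

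Hemidesmosomes bind the cell to the basement membrane rather than to its neighbour. Of 8 such genes measured, 1 was lower and 0 were higher, and with the TMM factor 0 were lower. The lower gene was Lama3, a laminin-332 chain, at 2.33 FPKM in KO and 6.42 FPKM in WT (-1.16). The highest log2 ratios of the list were those of Dst, a plakin of the bullous pemphigoid antigen family (0.32), and Itga3, an integrin chain (-0.04).

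Keratins are the filaments that desmosomes anchor. All 6 simple keratins were measured and 0 passed 2-fold, with a median log2 ratio of -0.42. The lowest were Krt18, at 586 FPKM in KO and 1087 FPKM in WT (-0.89), and its partner Krt8 (-0.57), and the highest Krt20, a keratin of differentiated villus cells, at 565 FPKM in KO and 361 FPKM in WT (0.65), followed by Krt7 (-0.22). Of 14 stratified keratins listed, 3 were measured. Krt6a, a keratin of wounded and stratified epithelia with a close copy in Krt6b, was at 1.04 FPKM in KO and 4.25 FPKM in WT (-1.36), and was lower by 2-fold. Krt80 (-0.54) and Krt5, the basal cell keratin, at 3.52 FPKM in KO and 4.75 FPKM in WT (-0.35), were within 2-fold.

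Markers of stratified squamous cells were checked because Dsg3, Pkp1 and Perp are genes of such cells. Of 11 listed, 3 reached 1 FPKM, and the 11 summed to 25.4 FPKM in KO and 20.4 FPKM in WT. Most of that sum was Ly6d, a surface protein also known from other cell types, at 20.4 FPKM in KO and 13.3 FPKM in WT. Trp63, the master regulator of stratified epithelium, was at 0.01 FPKM in KO and listed at 0 in WT, Krt4 and Krt13 were listed at 0 in both, and Krt14 was at 0.13 FPKM in KO and 0.29 FPKM in WT. Krt5, given above, and Sbsn, at 1.03 FPKM in KO and 1.26 FPKM in WT, were the other 2 that reached 1 FPKM. In the WT library, in which Dsg3 was at 11.11 FPKM, Trp63, Krt4 and Krt13 were thus at 0 while Krt5 was detected at 4.75 FPKM. Markers of non-epithelial cells had lower sums in KO, as Dsg3 did, at 27.7 FPKM in KO and 64.1 FPKM in WT for 6 mesenchymal genes. Vim alone made up 25.6 FPKM of this in KO and 59.8 FPKM in WT, and 4 of the 6, the collagen genes Col1a1, Col1a2 and Col3a1 and Pdgfra, were below 1 FPKM in both. The 5 leukocyte genes summed to 8.89 FPKM in KO and 24.4 FPKM in WT. Cd68 alone made up 6.08 FPKM of this in KO and 17.7 FPKM in WT. The 4 endothelial genes summed to 4.65 FPKM in KO and 9.47 FPKM in WT. None of these 15 was listed at 0. Of the 10 at 1 FPKM or more, 3 were at least 2-fold lower in KO, where 2.18% of all genes were lower. With the TMM factor 2 were, where 1.42% of all genes were lower. Their part in the Dsg3 difference was not tested.

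Of 18 measured transcription factors with known roles in epithelial junctions or stratification, 1 was lower and 0 were higher by 2-fold. The lower gene was Fosl1, a member of the AP-1 family, at 4.07 FPKM in KO and 16.8 FPKM in WT (-1.81), followed by Trp53. The highest were Klf4, a differentiation factor of gut and skin, at 51.3 FPKM in KO and 26.4 FPKM in WT (0.93), and Hnf4a, a regulator of enterocyte genes, at 252 FPKM in KO and 178 FPKM in WT (0.50). With the TMM factor Klf4 passed 2-fold as well.

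**Figure D5:**
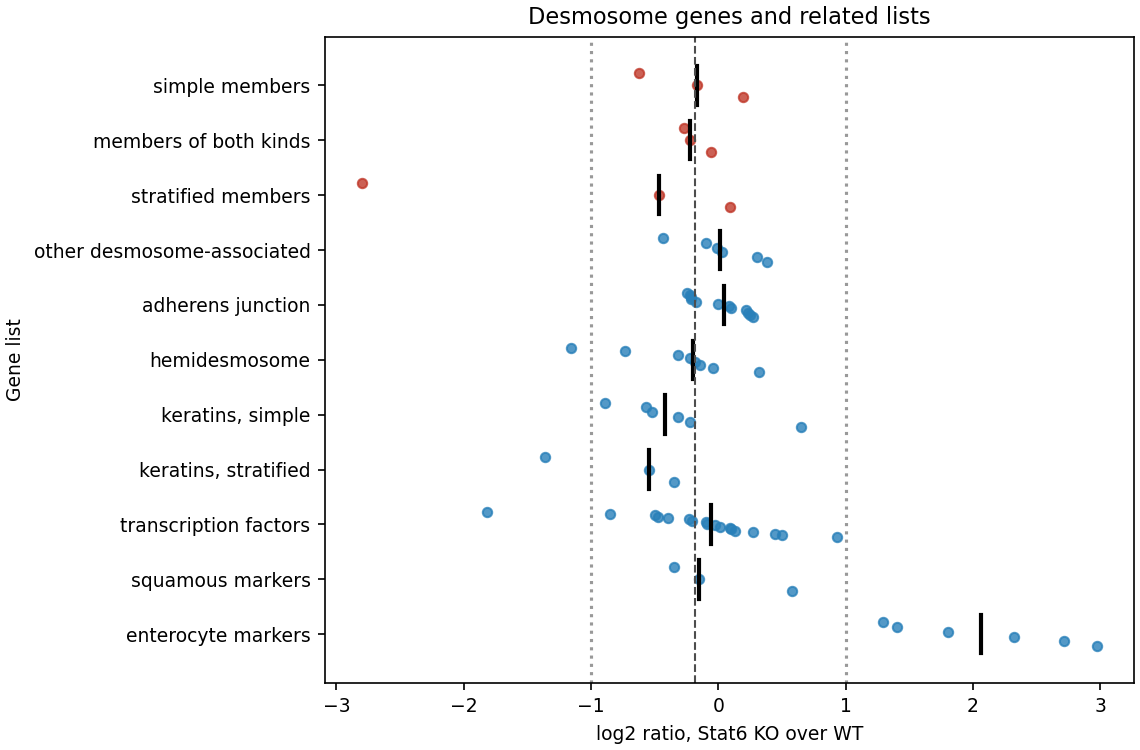
Log2 ratio of Stat6 KO over WT for the measured genes of each list, with desmosome genes in red and other lists in blue, black bars at list medians, a dashed line at the median of all genes (-0.18) and dotted lines at 2-fold. Dsg3 stands apart on the left, and the 6 enterocyte markers lie beyond the dotted line on the right.

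Genes near Dsg3 in the ranking by log2 ratio over these 2 libraries were of several kinds, leaving out short RNAs, pseudogenes and predicted or clone-named genes, some of which ranked closer to it. On the lower side the first 3 of those kept were Tppp (-3.28) and Tppp3 (-3.18), which promote tubulin polymerization, and Edn1 (-3.15), which encodes endothelin 1, at ranks 3, 4 and 5 from the lowest, with Dsg3 at 8. On the higher side they were Prl2c5 (-2.65), a proliferin with near-identical copies, Fam20c (-2.50), a kinase of secreted proteins, and Ccl2 (-2.43), a chemokine that attracts monocytes, at ranks 11, 14 and 18. Ccl2 was at 3.21 FPKM in KO and 21.7 FPKM in WT.

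Promoter sequences from RefSeq (GRCm38.p6, whereas the expression values were made on mm9) were held for 2 of the 10 genes, Jup and Dsp. They are shown because both encode plaque proteins of every desmosome and are the windows in which motifs of STAT6 could be searched. Each runs from 250 bases before to 50 bases after the annotated start, 5′ to 3′, Jup at chr11:100397741-100398040 on the minus strand and Dsp at chr13:38151044-38151343 on the plus strand. Capitals mark GC boxes (GGGCGG on either strand), a motif bound by Sp1-family factors that was added after the other motifs had been searched.
Jup: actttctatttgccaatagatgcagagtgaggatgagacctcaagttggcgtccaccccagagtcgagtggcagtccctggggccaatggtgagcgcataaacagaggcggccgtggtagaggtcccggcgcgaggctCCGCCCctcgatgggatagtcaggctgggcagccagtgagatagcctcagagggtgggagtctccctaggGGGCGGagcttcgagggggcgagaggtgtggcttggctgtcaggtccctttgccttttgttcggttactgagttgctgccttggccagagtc
Dsp: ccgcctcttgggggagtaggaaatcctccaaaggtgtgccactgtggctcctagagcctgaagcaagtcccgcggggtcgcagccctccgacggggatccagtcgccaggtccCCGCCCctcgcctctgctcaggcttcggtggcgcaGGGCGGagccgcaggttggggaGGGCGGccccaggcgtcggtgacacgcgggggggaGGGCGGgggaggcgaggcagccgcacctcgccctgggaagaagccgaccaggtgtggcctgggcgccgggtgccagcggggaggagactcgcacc
Neither window held the motif known for STAT6, TTC and GAA with 4 bases of any kind between them, which 6.95% of all 32851 promoters held. Neither held the motif of other STATs, with 3 bases between TTC and GAA, found in 8.30% of promoters, or the AP-1 motif TGANTCA, found in 7.81%. All were searched on both strands. GC boxes stood in both, 2 in Jup and 4 in Dsp, and in 35.7% of all promoters. G and C made up 60.7% of the Jup window and 73.0% of the Dsp window, against a median of 52.7% over all promoters. A motif of only G and C is more likely to occur in such windows. No match says only that these letters are not in these windows.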

How the data were processed

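Total RNA was sequenced as single-end reads of 50 bases on a BGISEQ-500, with an average of 59000000 reads in a sample, per the labels' protocols. The authors deposited FPKM per gene, rounded to 2 decimals, per the file headers. The submitters' processing notes name RSEM, HISAT and Bowtie2 and the build mm9. Their versions and roles, the annotation and any filter are not given in these sources. FPKM depends on the library total, so abundant genes that differ move all others.

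Genotype came from the labels. Log2 ratios, the background percentages and a TMM factor (trims of 30% and 5%) were computed over the whole table with Python 3.11.15, and no test of genotype was run. The code for the calls, the TMM factor and the depth estimate was tested on simulated data. The simulation took the depths found here as given and held counting error but no spread between cultures. It therefore checks the code and not whether the depth or the calls are right for these libraries. Depth was the library total that brought most values of up to 5 reads within 0.1 read of a whole number, for genes with a single GENCODE M21 transcript length less 37 bases: 65.4% of 133 values in KO and 62.1% of 169 in WT. Evenly spread values would give 20% at a total and length fixed beforehand. Both were instead chosen to make the share highest, so the 20% does not measure the support for the depth. Both totals lay below the labels' average. Reads per gene used the longest coding transcript and are approximate. Protein sequences were not analysed here.

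The genes, lists and tests were chosen with earlier results of these data known, so the Dsg3 difference, already known, is no independent finding. Genes named were the 10 desmosome genes, the 2 highest and 2 lowest of each list (for stratified lists also the 2 highest in WT), the first 3 genes on either side of Dsg3 in the ranking once short RNAs, pseudogenes and predicted or clone-named genes were set aside, and Stat6 and Lgr5 as checks. Some genes that this rule selects are left out here. Cluster and marker genes were named after their values were seen. Alternatives were other pseudocounts, scalings, minimum levels, thresholds and family definitions.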

Additional observations from a re-analysis of the deposited data

How the results depend on the processing

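Dsg3 as the 1 desmosome gene at least 2-fold lower in KO, and 0 higher, held with pseudocounts of 0.1 and 5, with both scalings and at 4-fold. The counts were also the same without Perp, with no minimum and with 5 FPKM, but these settings could not change them. Perp was not called, and dropping the minimum adds only Dsc3, at 0.1 FPKM in both libraries. A minimum of 5 FPKM keeps the same genes, Dsg3 only through its WT level of 11.11 FPKM. At 1.5-fold 2 genes were lower, Dsg3 and Dsg2, by the construction of the threshold. The median log2 ratio of the measured genes, -0.22, became 0.0033 with the TMM factor and -0.0428 with the median of all genes set to 0, so its sign follows the scaling. The Dsg3 share of desmoglein levels differed by -6.32 percentage points (KO minus WT), and by -6.77 points in estimated reads. The Pkp1 share of plakophilins differed by -5.31 points, and by -10.47 points without Pkp3. The Dsc3 share differed by 0.022 points, and by -0.013 points with Dsc1 added, both too small to read at about 10 reads. Of 40 values of single genes under other settings, 22 lay within about the width of the counting interval around the reported log2 ratio, and 18 moved beyond it. For Dsg3 this is not the interval of the plain KO to WT ratio given above. Dsg3, the 1 gene past 2-fold, did not change sign. The number of genes below 0 was 7 as deposited, 4 with the TMM factor and 5 with the median set to 0. No paired analysis was possible because each genotype has 1 library, and for the same reason no replicate could be left out.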
